A study of Mus musculus with 7 samples.

Results

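The 38 genes described here encode chaperones, disulfide isomerases, stress sensors and their targets, degradation factors and export coat subunits of the endoplasmic reticulum (ER). They were listed by name for their known roles in the compartment, with no measured value in the rule, by a choice made with earlier results of these data known, and all 38 were found among the 55450 genes of the count table. All 38 passed the filter on low counts, together with 17959 genes in all. Bulk RNA sequencing had been performed on polyadenylated RNA from dorsal skin of 24-month-old male C57BL/6 mice, all wild type. One group of 3 mice (476, 477 and 478) received topical 5 μM ABT-263, and 4 mice (480, 481, 482 and 483) received the vehicle DMSO alone. ABT-263 (Navitoclax) inhibits anti-apoptotic proteins of the BCL-2 family and is used as a senolytic, a drug that removes senescent cells. Skin of both groups was clipped, depilated with a lotion, cleaned with ethanol and kept under a film dressing for the 5 days of treatment, so every difference is relative to skin handled that way. The question asked of these genes was whether the folding and stress machinery of the ER differed in transcript level between the treated groups.

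Secreted and membrane proteins pass through the ER, where chaperones such as BiP bind unfolded chains and protein disulfide isomerases join cysteines. When unfolded chains accumulate, 3 sensors in the ER membrane (IRE1, PERK and ATF6) start the unfolded protein response, which raises chaperones, degradation factors and export capacity and lowers translation. Skin fibroblasts, which secrete collagen, and plasma cells, which secrete antibody, are known for a large ER.

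Of the 38 genes, 10 were upregulated after ABT-263 at an adjusted p under 0.05 (26.3%, where 12.4% of all genes tested were higher), and 0 were downregulated (11.7% of all genes tested were lower). The upregulated genes were Sec24d, Eif2ak3, Pdia5, Xbp1, Ero1l, Sec61a1, Pdia4, Ern1, P4hb and Creb3l2. Of these, 5 were more than 2-fold higher, namely Sec24d, Eif2ak3, Pdia5, Xbp1 and Ero1l, where 7.23% of all genes tested were. The median log2 fold change (ABT-263 over DMSO) of the 38 genes was 0.41, with a range of -0.44 to 1.52, beside 0.0022 for all genes tested, and 30 of the 38 values were positive (50.1% of all genes tested were). Every ABT-263 mouse lay above every DMSO mouse in 14 of the 38 genes (36.8%, where 18.7% of all genes tested did so), and below in 2 genes, Sel1l and Atf4 (5.26%, where 18.4% did so). Genes were tested with edgeR (quasi-likelihood, adjusted by Benjamini-Hochberg over all genes tested), and 20 of the 38 genes had an unadjusted p under 0.05. The number of upregulated genes was 12 and 11 in fits without mice 480 and 477, where 11.6% and 12.3% of all genes tested were higher. It was 5, 4, 4, 5 and 6 without mice 481, 482, 483, 476 and 478, where the share of all genes tested also fell, to 7.95%, 4.8%, 5.58%, 6.01% and 5.22%. Sec24d, Eif2ak3 and Pdia5 passed whichever mouse was left out. With 1 mouse per library, the p-values set the difference between the groups against the spread between these mice.

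**Figure D1:**
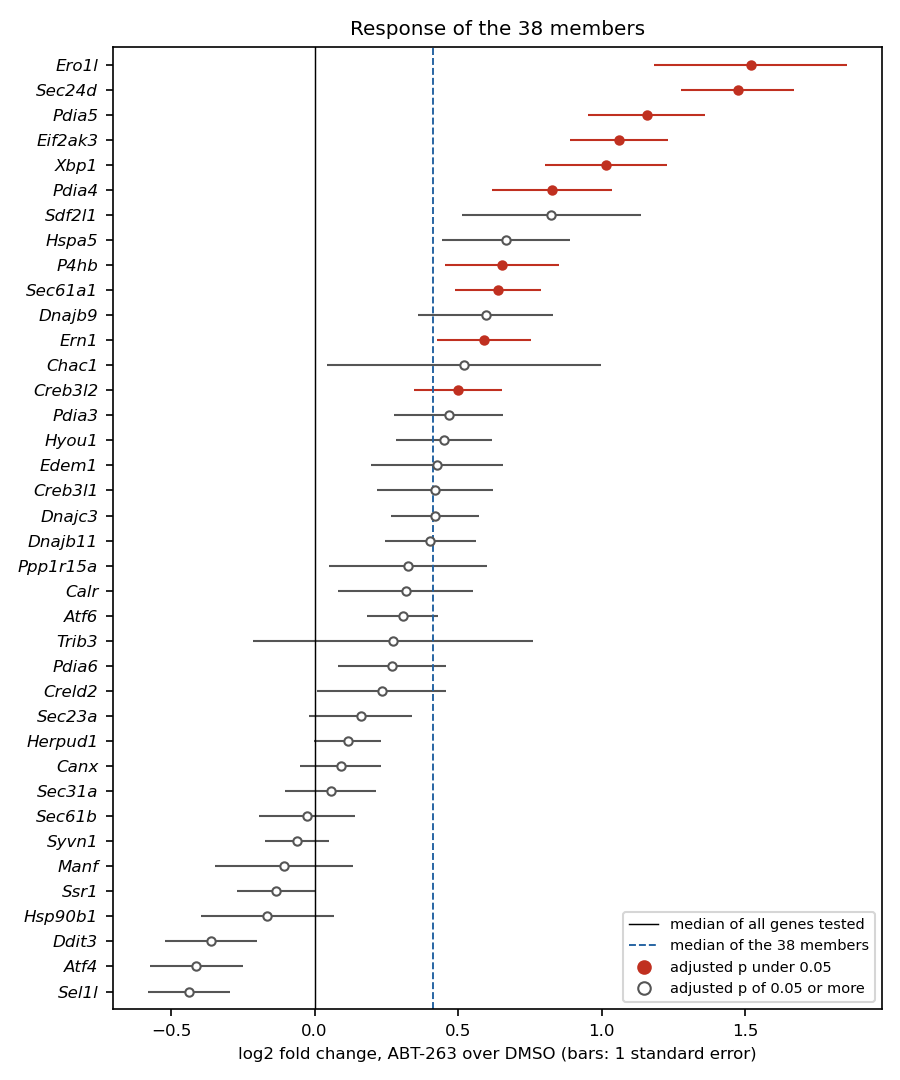
Log2 fold change (ABT-263 over DMSO, horizontal axis) of the 38 genes in order of size, with bars of 1 standard error, filled red points for genes at an adjusted p under 0.05, a solid line at the median of all genes tested (0.0022) and a dashed line at the median of the set (0.41). The 10 filled points lie between 0.50 and 1.52.

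Libraries held 20344364 to 26824123 counted read pairs in the DMSO group and 27325963 to 43562330 in the ABT-263 group, so every treated library was the deeper one. Spearman correlations across genes were 0.954 to 0.987 within groups and 0.881 to 0.974 between them. The skin label was checked on markers, given as summed CPM (counted read pairs scaled to a common library size). Keratinocyte markers summed to 26943 to 70532 CPM after DMSO and 19861 to 60524 CPM after ABT-263, with 0 of 7 called. Fibroblast markers summed to 4011 to 5652 and 6360 to 9016 CPM, and 3 of 7 were higher. Macrophage markers summed to 224 to 651 and 706 to 1902 CPM (5 of 6 higher), and neutrophil markers to 99.8 to 1820 and 5097 to 8318 CPM (3 of 5 tested higher). S100a8 and S100a9 made up most of the neutrophil sum in every mouse. The other neutrophil markers were far lower, and each was highest in mouse 476. In mice 476, 477 and 478, Retnlg was at 232, 2.09 and 3.03 CPM and Csf3r at 77.98, 12.4 and 10.7 CPM. After DMSO these 2 genes had at most 1.03 and 3.72 CPM. Skeletal muscle markers summed to 27226 to 56345 and 23257 to 32265 CPM, with 1 of 6 lower, so the homogenates held muscle as well as skin. Of the 7 plasma cell markers 0 were called, and their sum (285 to 532 CPM after DMSO, 395 to 1923 CPM after ABT-263) consisted mostly of Sdc1 in every mouse but 476. Without Sdc1 the other 6 summed to 1.81 to 76.6 CPM after DMSO and to 1588, 5.09 and 10.9 CPM in mice 476, 477 and 478. No marker of the 6 lists was at 0 in every mouse. The part of these cell types in the results was not tested, and in bulk tissue fewer cells of a type and less RNA per cell cannot be told apart.

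The promoters of the set are shown first, because the ER stress response element (ERSE) is the classical sequence that ATF6 and XBP1 bind with NF-Y. Promoters came from RefSeq on GRCm38.p6 and ran from 250 bases before to 50 bases after the start site. Of the 38 genes, 33 had a promoter there, and Hyou1, Manf, Atf6, Creb3l1 and Sec61a1 had none. ERSE was searched on both strands as CCAAT, 9 free bases and CCACG, and was present in 39 of 32851 promoters (0.119%) and in 8 of the 33 genes (24.2%). Its second form, ERSE-II, searched as ATTGG, 1 free base and CCACG, was present in 0.0365% of promoters and in Dnajb11 and Herpud1. Both forms end in CCACG, and no stretch was counted under both. The 11 elements are printed on the strand that reads CCAAT or ATTGG first, with the fixed letters in capitals, to show how the free bases between them vary.
Hspa5, position -65 from the start site: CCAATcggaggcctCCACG
Hsp90b1, position -212: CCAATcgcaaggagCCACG
Hsp90b1, position -107, opposite strand: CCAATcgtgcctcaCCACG
Calr, position -162, opposite strand: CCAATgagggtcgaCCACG
Canx, position -145: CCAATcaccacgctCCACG
Dnajc3, position -105: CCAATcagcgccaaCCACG
Creld2, position -126, opposite strand: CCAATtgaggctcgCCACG
Pdia6, position -98: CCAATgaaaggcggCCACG
Syvn1, position -44: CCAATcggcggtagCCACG
Dnajb11, ERSE-II, position 8: ATTGGcCCACG
Herpud1, ERSE-II, position -52: ATTGGgCCACG

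None of the 10 genes with either element was called, and their median log2 fold change was 0.25 (range -0.16 to 0.67). Of all genes tested, 12.4% were called higher and 11.7% lower, so 0 calls in 10 genes is near each share taken alone. The 2 directions were not weighed together. Among the 23 genes with a promoter and neither element, 9 were called and the median log2 fold change was 0.50 (range -0.44 to 1.52). Every ABT-263 mouse lay above every DMSO mouse in 1 of the 10 genes (Hspa5) and in 10 of the 23 (18.7% of all genes tested did so). In Sel1l and Atf4, which hold neither element, every ABT-263 mouse lay below. This split was not tested, and a match or its absence in 300 bases describes letters only. The whole promoter of Hspa5, which encodes BiP and is the reference gene of the element, is given with its exact ERSE in capitals (chr2:34771840-34772139, plus strand).
Hspa5 promoter: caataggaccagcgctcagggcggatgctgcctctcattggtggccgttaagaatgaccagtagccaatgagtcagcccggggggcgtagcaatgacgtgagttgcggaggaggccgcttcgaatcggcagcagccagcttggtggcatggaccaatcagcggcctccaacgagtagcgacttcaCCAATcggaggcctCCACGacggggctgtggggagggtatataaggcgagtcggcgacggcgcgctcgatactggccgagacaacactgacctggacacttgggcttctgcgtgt

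The shorter core TGACGTGG, found in unfolded protein response elements bound by ATF6 and XBP1, was present in 0.676% of promoters and in Sec24d and Sec23a. The Sec24d promoter is printed because this gene had the smallest p-value of the set, with the core in capitals at position -26 (chr3:123267246-123267545, plus strand).
Sec24d promoter: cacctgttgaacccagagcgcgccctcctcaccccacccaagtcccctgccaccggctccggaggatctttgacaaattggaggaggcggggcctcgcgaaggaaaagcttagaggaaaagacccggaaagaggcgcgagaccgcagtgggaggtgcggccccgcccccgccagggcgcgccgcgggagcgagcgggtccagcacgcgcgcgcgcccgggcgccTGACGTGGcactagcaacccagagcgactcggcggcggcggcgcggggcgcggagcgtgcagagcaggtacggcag
The cAMP response element TGACGTCA, which shares its first 6 letters with that core, was present in 1.79% of promoters and in Ppp1r15a. The amino acid response core TTGCATCA, of the kind bound by ATF4 dimers, was present in 0.895% and in Chac1 and Herpud1. The Xbp1 promoter held none of the 5 motifs in this window and is printed as the counterpart among upregulated regulators (chr11:5520391-5520690, plus strand).
Xbp1 promoter: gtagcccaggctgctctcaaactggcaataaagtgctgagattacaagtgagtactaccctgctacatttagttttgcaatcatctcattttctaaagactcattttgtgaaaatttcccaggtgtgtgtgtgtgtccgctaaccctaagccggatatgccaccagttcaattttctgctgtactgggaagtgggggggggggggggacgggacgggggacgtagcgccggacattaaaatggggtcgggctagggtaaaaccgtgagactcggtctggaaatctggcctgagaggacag

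**Figure D2:**
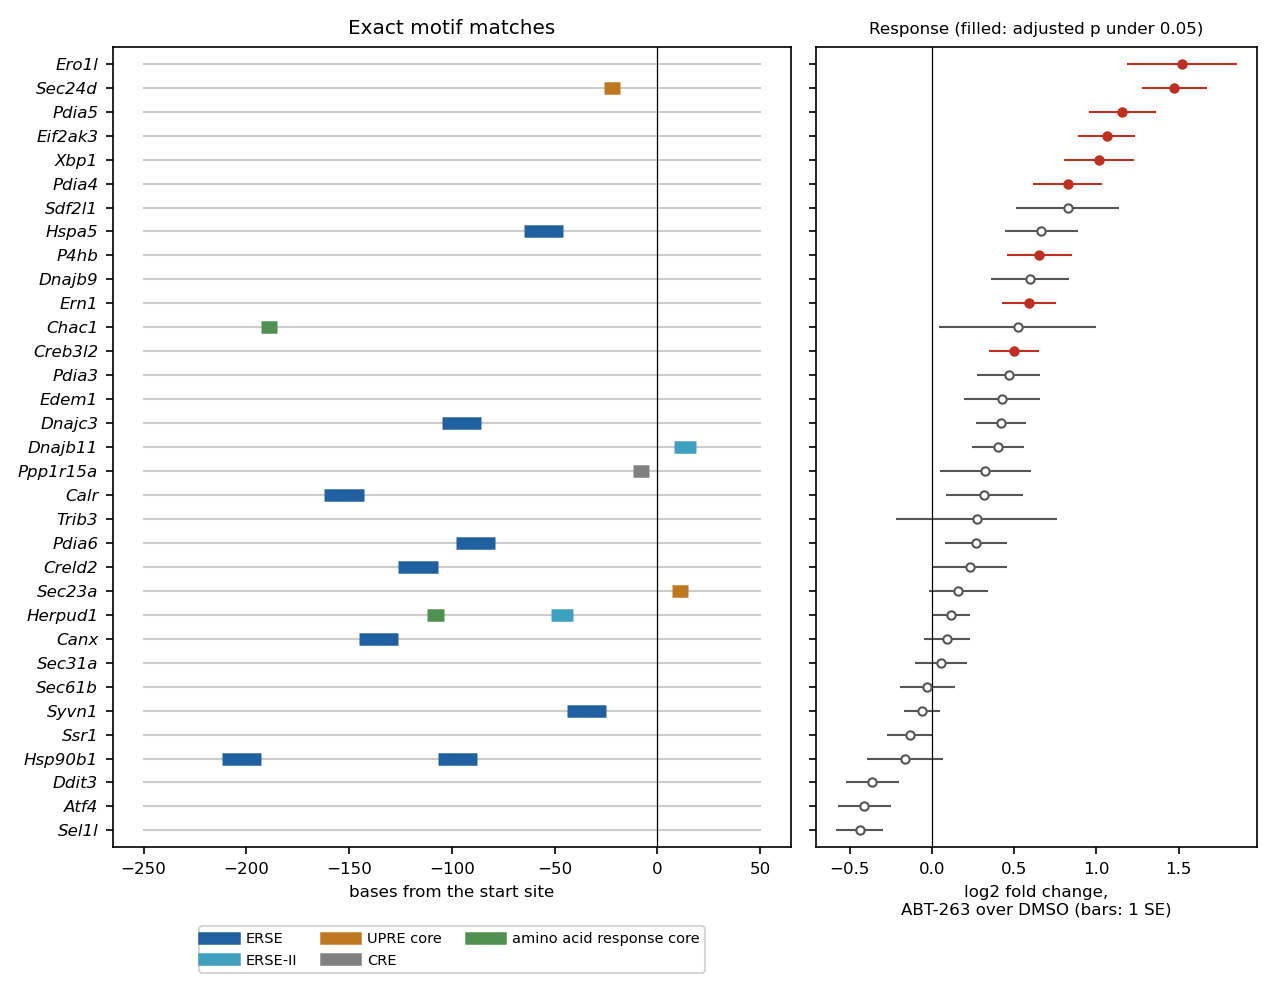
Left, position of each motif match relative to the start site (horizontal axis, bases) in the 33 genes with a promoter, coloured by motif, and right, the log2 fold change (ABT-263 over DMSO) of the same gene with a bar of 1 standard error, filled where the adjusted p was under 0.05. The 10 genes with ERSE or ERSE-II have log2 fold changes between -0.16 and 0.67. None was called, which in 10 genes is near each share of all genes tested taken alone (12.4% higher, 11.7% lower).

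Among the 11 chaperones and co-chaperones, 0 were called in either direction, 9 had a positive log2 fold change and the median was 0.40. In 11 genes, 0 calls is near each share of all genes tested (12.4% higher and 11.7% lower) taken alone. The 2 directions were not weighed together. Hspa5 (BiP, the main ER Hsp70; ENSMUSG00000026864, chromosome 2 from 34771970 to 34777547) was measured at 323, 225, 275 and 290.3 CPM in DMSO mice 480 to 483 and at 597, 356 and 372 CPM in ABT-263 mice 476 to 478. All treated mice were above all DMSO mice, and mouse 476 was far above the other treated mice. The means were 278 ± 40.8 CPM (SD, n = 4) and 442 ± 135 CPM (SD, n = 3), with a log2 fold change of 0.67 (SE 0.22) that did not pass the threshold in edgeR (adjusted p = 0.0612) and did in DESeq2 (adjusted p = 0.0348). Without mouse 476 the log2 fold change of Hspa5 was 0.39.

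Hyou1, the Hsp110-type exchange factor for BiP, and Sdf2l1, a partner of ER J-proteins, also did not overlap between the groups. Hyou1 had 43.2 to 53.1 CPM after DMSO and 55.6 to 82.8 CPM after ABT-263 (adjusted p = 0.0823). Sdf2l1 had 13.4 to 17.3 CPM after DMSO and 45.5, 19.0 and 19.2 CPM in mice 476, 477 and 478 (log2 fold change 0.83, adjusted p = 0.0868). The Sdf2l1 difference therefore came mostly from mouse 476, and its log2 fold change without that mouse was 0.29. The J-protein co-chaperones Dnajb9, Dnajb11 and Dnajc3 had log2 fold changes of 0.60, 0.40 and 0.42, with overlapping groups and adjusted p of 0.0983, 0.0953 and 0.079.

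The lectin chaperones and Grp94, which are among the most abundant ER proteins, gave smaller values. Calr (calreticulin) had 470.4 to 774 CPM after DMSO and 619.5 to 1005 CPM after ABT-263, and Canx (calnexin) had 196 to 227 and 199.9 to 259 CPM. Hsp90b1 (Grp94) had 545, 417, 536 and 558 CPM after DMSO and 613, 434 and 329 CPM after ABT-263, so treated mice lay on both sides of the DMSO mice, and 5.38% of its exon bases are shared with another gene. Their log2 fold changes were 0.32 (SE 0.23), 0.091 (SE 0.14) and -0.16 (SE 0.23). The secreted stress factors Creld2 and Manf had log2 fold changes of 0.23 (SE 0.23) and -0.11 (SE 0.24), and overlapped between the groups. A p that misses the threshold does not show that a level was equal in the groups. A change of several standard errors could still miss it, as Hspa5 did in edgeR (0.67, SE 0.22, adjusted p = 0.0612).

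Among the 5 disulfide isomerases and the oxidase that recharges them, 4 of 6 genes were upregulated (66.7%, where 12.4% of all genes tested were higher). The median log2 fold change was 0.74. Pdia5 (ENSMUSG00000022844, chromosome 16 from 35397312 to 35490873) was measured at 13.3, 7.29, 9.96 and 9.70 CPM in the DMSO mice and 24.1, 21.1 and 22.1 CPM in the ABT-263 mice. The treated mice were close together and each exceeded the highest DMSO mouse (means 10.1 ± 2.49, SD, n = 4, and 22.5 ± 1.52, SD, n = 3), with a log2 fold change of 1.16 (SE 0.20, adjusted p = 0.00987). Pdia5 is known as an isomerase that acts on ATF6.

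Ero1l (ERO1 alpha, the flavin oxidase that passes electrons from isomerases to oxygen; ENSMUSG00000021831, chromosome 14 from 45283087 to 45318771) had the largest fold change of the 38 genes. It was at 18.2, 14.3, 17.9 and 11.8 CPM in the DMSO mice and 72.7, 28.0 and 33.2 CPM in the ABT-263 mice. Mouse 476 was more than 2-fold above the other treated mice, and no treated mouse reached down to the DMSO mice. The log2 fold change of Ero1l was 1.52 (SE 0.34, adjusted p = 0.0189), and 0.98 (adjusted p = 0.026) without mouse 476, while without DMSO mouse 483 the adjusted p was 0.0533.

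Pdia4 (ERp72; ENSMUSG00000025823, chromosome 6 from 47796141 to 47813430) was at 61.9, 42.9, 48.7 and 47.4 CPM in the DMSO mice and 119.7, 75.0 and 72.7 CPM in the ABT-263 mice. P4hb (the abundant isomerase PDI, also the beta subunit of collagen prolyl 4-hydroxylase; ENSMUSG00000025130, chromosome 11 from 120560298 to 120573253) was at 641, 387, 530.3 and 482 CPM and at 867, 782 and 755 CPM. Neither gene overlapped between the groups, and mouse 476 was again highest in both. Log2 fold changes were 0.83 (SE 0.21, adjusted p = 0.0274) for Pdia4 and 0.65 (SE 0.20, adjusted p = 0.0457) for P4hb. Pdia4 did not pass without mouse 481, 482, 483 or 476 (adjusted p of 0.0637 to 0.075), and P4hb passed only without mouse 480 (0.0752 to 0.126 in the others). Pdia3 (ERp57, the isomerase that works with calnexin and calreticulin) had 291 to 389.6 CPM after DMSO and 379 to 571 CPM after ABT-263, and Pdia6 had 177 to 217 and 183 to 305 CPM. Both overlapped between the groups, with adjusted p of 0.107 and 0.316.

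**Figure D3:**
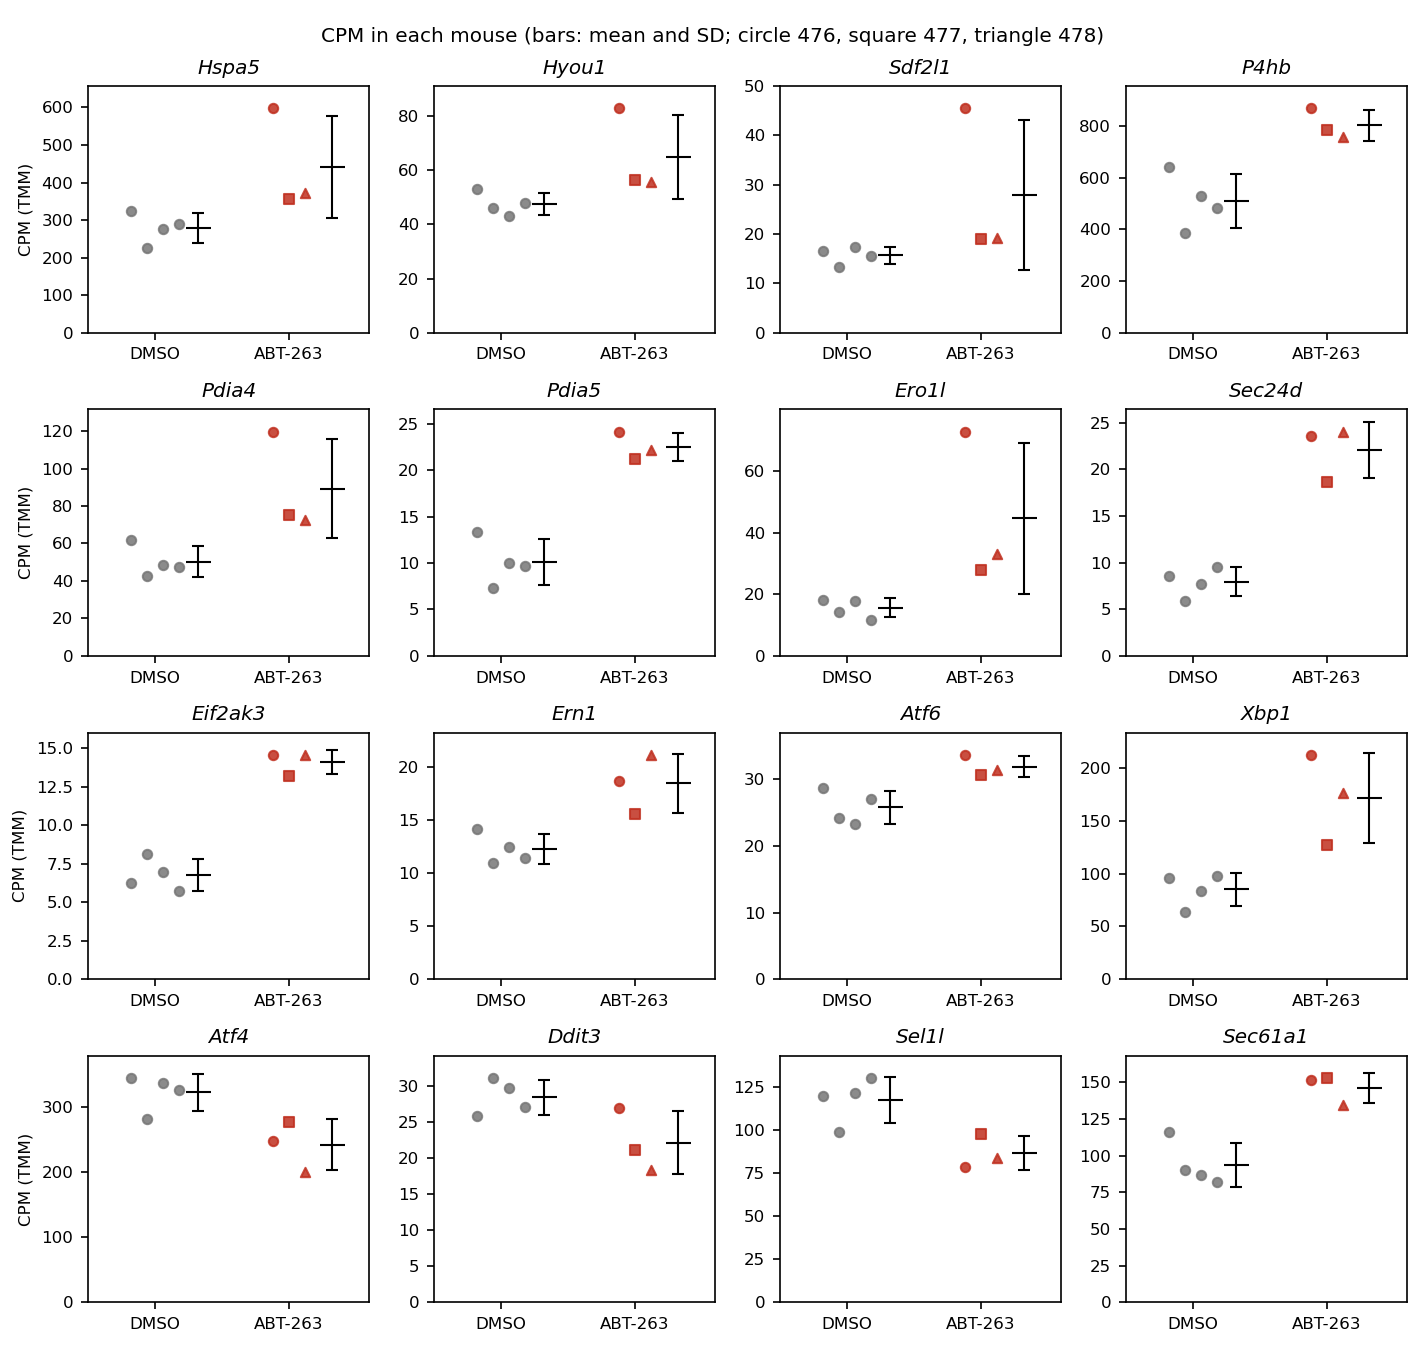
Level in each mouse (vertical axes, CPM, from 0) of single genes after DMSO (4 mice) and ABT-263 (3 mice), with symbols for the treated mice (circle 476, square 477, triangle 478), the mean as a line and the SD as a bar. Sec24d, Eif2ak3, Pdia5 and Xbp1 separate the groups in every mouse, while Atf4 lies lower in every treated mouse (201 to 278 CPM against 282 to 345 CPM).

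The 7 sensors and membrane-linked or downstream transcription factors held 4 upregulated genes (57.1%, where 12.4% of all genes tested were higher). Their median log2 fold change was 0.50. Eif2ak3, which encodes the translation-inhibiting kinase PERK (ENSMUSG00000031668, chromosome 6 from 70844515 to 70905245), was at 6.26, 8.09, 6.93 and 5.71 CPM in the DMSO mice and 14.6, 13.2 and 14.5 CPM in the ABT-263 mice. The treated mice were nearly alike and all were above the DMSO mice, with a log2 fold change of 1.06 (SE 0.17, adjusted p = 0.00818). Ern1, which encodes the kinase and nuclease IRE1 alpha (ENSMUSG00000020715, chromosome 11 from 106394650 to 106487852), was at 14.2, 11.0, 12.5 and 11.5 CPM and at 18.7, 15.6 and 21.2 CPM. The groups of Ern1 did not overlap, and the log2 fold change was 0.59 (SE 0.16, adjusted p = 0.0349). Ern1 passed without mouse 480 or 477 and had an adjusted p of 0.0753 to 0.119 without any of the others.

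Atf6, the third sensor, is cut in the Golgi to release a transcription factor (ENSMUSG00000026663, chromosome 1 from 170704674 to 170867771). It was at 28.6, 24.2, 23.3 and 27.0 CPM in the DMSO mice and 33.6, 30.6 and 31.4 CPM in the ABT-263 mice. Each treated mouse was above each DMSO mouse, by a small margin, and the log2 fold change of 0.31 (SE 0.12) did not pass (adjusted p = 0.103). All 3 sensor transcripts were thus higher in every treated mouse, and 2 of them passed the test.

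Xbp1 encodes the transcription factor made active when IRE1 splices its mRNA (ENSMUSG00000020484, chromosome 11 from 5520659 to 5525893). It was at 96.1, 63.6, 83.2 and 97.3 CPM in the DMSO mice and 212, 127 and 176 CPM in the ABT-263 mice. The lowest treated mouse, 477, was above the highest DMSO mouse, and the log2 fold change was 1.02 (SE 0.21, adjusted p = 0.0158). Without DMSO mouse 482 or ABT-263 mouse 478 the adjusted p was 0.0509 or 0.0516, with a log2 fold change of 1.00 in both. Gene counts do not tell spliced from unspliced Xbp1.

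Creb3l2 (BBF2H7, an ER-membrane factor linked to collagen export; ENSMUSG00000038648, chromosome 6 from 37327255 to 37442146) was at 17.1, 13.9, 16.1 and 18.2 CPM in the DMSO mice and 26.4, 20.1 and 22.9 CPM in the ABT-263 mice. The groups did not overlap, and the log2 fold change was 0.50 (SE 0.15, adjusted p = 0.048), a call that 6 of 8 other processing settings did not make and that held only without mouse 477 (adjusted p of 0.0624 to 0.15 without any of the others). Its relative Creb3l1 (OASIS) had 16.4 to 26.2 CPM after DMSO and 23.6 to 31.7 CPM after ABT-263, overlapping between the groups (adjusted p = 0.158).

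Atf4, the factor whose translation rises when PERK is active, had a log2 fold change of the opposite sign to that of Eif2ak3 (ENSMUSG00000042406, chromosome 15 from 80255184 to 80257541). It was at 345, 282, 338 and 327 CPM in the DMSO mice and 249, 278 and 201 CPM in the ABT-263 mice. Each treated mouse was below each DMSO mouse, although 477 and 481 nearly met, and the log2 fold change of -0.41 (SE 0.16) did not pass (adjusted p = 0.095). Protein or translation of Atf4 was not measured in these libraries.

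None of the 4 genes downstream of ATF4 was called with all 7 mice, and the groups overlapped in each. In 4 genes, 0 calls is near the shares of all genes tested (12.4% higher and 11.7% lower). Ddit3, which encodes the pro-apoptotic factor CHOP (ENSMUSG00000025408, chromosome 10 from 127290774 to 127296288), was at 25.8, 31.1, 29.7 and 27.1 CPM in the DMSO mice and 26.9, 21.1 and 18.3 CPM in the ABT-263 mice. Mouse 476 lay within the DMSO range and the others below it, with a log2 fold change of -0.36 (SE 0.16, adjusted p = 0.131). Of the exon bases of Ddit3, 6.13% are shared with another gene on the same strand. Trib3, a pseudokinase induced by CHOP, was at 28.0, 6.40, 10.3 and 9.41 CPM in the DMSO mice and 14.3, 21.7 and 13.1 CPM in the ABT-263 mice (log2 fold change 0.27, adjusted p = 0.711). DMSO mouse 480 alone was above the treated mice, and without it the log2 fold change of Trib3 was 0.91 (adjusted p = 0.0492), while leaving out any other mouse gave 0.033 to 0.42. Chac1, a glutathione-degrading enzyme, averaged 10.2 ± 5.32 CPM (SD, n = 4) in the DMSO mice and 14.7 ± 6.76 CPM (SD, n = 3) in the ABT-263 mice, and Ppp1r15a (GADD34, the phosphatase subunit that restores translation) 45.3 ± 8.48 and 56.8 ± 21.8 CPM. These were among the most variable genes of the set, with standard errors of 0.49 for Trib3, 0.48 for Chac1 and 0.27 for Ppp1r15a on the log2 scale.

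The 4 genes of ER-associated degradation gave 0 calls and a median log2 fold change of 0.027. So few genes with 0 calls are near the shares of all genes tested (12.4% higher and 11.7% lower). Sel1l, the membrane adaptor of the HRD1 ubiquitin ligase, was at 119, 98.8, 121 and 130.0 CPM in the DMSO mice and 78.5, 97.7 and 83.8 CPM in the ABT-263 mice. Each treated mouse was below each DMSO mouse, with the nearest pair (477 and 481) about 1 CPM apart. The log2 fold change of Sel1l was -0.44 (SE 0.14, adjusted p = 0.0574), the lowest of the set, and it passed as lower under 2 of 8 other processing settings. Syvn1, the ligase HRD1 itself, had 41.0 to 44.9 CPM after DMSO and 37.9 to 44.8 CPM after ABT-263 (log2 fold change -0.061, SE 0.11). Herpud1, which organizes the ligase complex, had a log2 fold change of 0.12 (SE 0.12), and Edem1, which marks misfolded glycoproteins, 0.43 (SE 0.23). Both overlapped between the groups.

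Of the translocon genes, Sec61a1, the pore subunit of the protein-conducting channel (ENSMUSG00000030082, chromosome 6 from 88503579 to 88518905), was upregulated. It was at 116, 90.5, 86.5 and 82.3 CPM in the DMSO mice and 151, 153 and 134 CPM in the ABT-263 mice. No treated mouse overlapped the DMSO mice, and the log2 fold change was 0.64 (SE 0.15, adjusted p = 0.0217), with 0.0501 to 0.0682 when mouse 481, 482, 483 or 476 was left out. The small subunit Sec61b had a log2 fold change of -0.027 (SE 0.17) and the translocon-associated Ssr1 of -0.13 (SE 0.14), both with overlapping groups.

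Sec24d, which selects cargo for the COPII coat on vesicles leaving the ER (ENSMUSG00000039234, chromosome 3 from 123267455 to 123365641), had the smallest p-value of the 38 genes. It was at 8.55, 5.90, 7.70 and 9.57 CPM in the DMSO mice and 23.5, 18.6 and 24.0 CPM in the ABT-263 mice. The lowest treated mouse was almost 2-fold above the highest DMSO mouse, and the means differed 2.78-fold (log2 fold change 1.47, SE 0.20, adjusted p = 0.00628). The other coat subunits Sec23a (inner layer) and Sec31a (outer layer) had log2 fold changes of 0.16 (SE 0.18) and 0.056 (SE 0.16), with overlapping groups.

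Levels per kilobase of exon separate the genes of the set by abundance. In the DMSO mice the highest mean levels were those of Calr (221 CPM per kb), P4hb (178), Atf4 (137), Hsp90b1 (127) and Pdia3 (109), and Hspa5 stood at 65.8 CPM per kb. Sec24d (1.25) and Eif2ak3 (1.12) were the lowest, so the genes with the smallest p-values were also the scarcest transcripts, and P4hb was the only called gene above 100 CPM per kb. After ABT-263, Sec24d was at 3.49, Eif2ak3 at 2.34 and Xbp1 at 52.9 CPM per kb, the last from 26.2.

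**Figure D4:**
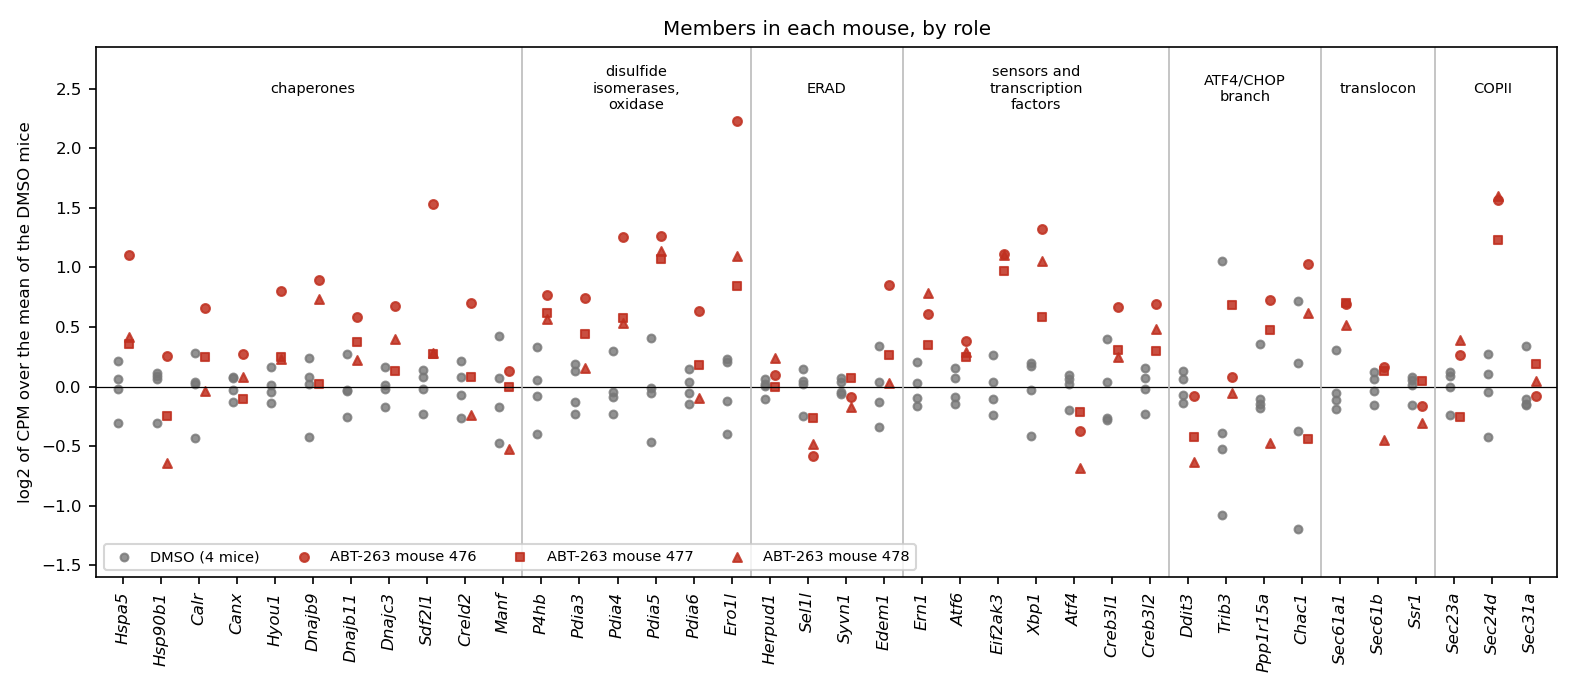
Log2 of the CPM in each mouse over the DMSO mean (vertical axis) for the 38 genes (horizontal axis, by role), with grey points for the 4 DMSO mice and a red symbol for each ABT-263 mouse. Mouse 476 (circles) is the highest of the treated mice in 27 genes.

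The set was not evenly raised in the treated mice. Mouse 476 was the highest of all 7 mice in 25 of the 38 genes (65.8%, where it was so in 21% of all genes tested), among them 10 of the 11 chaperones. It exceeded every DMSO mouse in 30 genes (78.9%, where it did so in 33.3% of all genes tested). Mice 477 and 478 exceeded every DMSO mouse in 19 and 18 of the 38 genes (and in 28.8% and 33.8% of all genes tested). Across all genes mouse 476 also stood apart, with Spearman correlations of 0.881 to 0.918 with the DMSO mice against 0.930 to 0.974 for mice 477 and 478. The median log2 deviation from the DMSO mean was 0.67 in mouse 476, 0.25 in 477 and 0.24 in 478. Among the genes with an ERSE, 7 of 8 were highest in mouse 476. In the same mouse the summed markers of macrophages (1902 CPM), neutrophils (8318 CPM) and plasma cells (1588 CPM without Sdc1) were the highest of the 7 mice, with Igkc at 1443 CPM and Jchain at 133 CPM, against 67.2 and 7.28 CPM or less in the other mice. Igkc made up most of that plasma cell sum. Mzb1, Pou2af1 and Derl3 were also highest in mouse 476, at 3.11 to 5.08 CPM. Tnfrsf17 (0.894 CPM in mouse 476) lay within the DMSO range (0.801 to 1.52 CPM), and Sdc1 (335 CPM) was the lowest of the treated mice. Keratinocyte markers of mouse 476 summed to 19861 CPM, the lowest of the 7 mice, and its skeletal muscle markers (28688 CPM) lay within the range of the others. Its fibroblast markers summed to 6360 CPM, the lowest of the treated mice. Fibroblast markers differed among themselves. In mouse 476 the collagen genes Col1a1 (2389 CPM) and Col1a2 (1781 CPM) were the lowest of the treated mice, and Pdgfra (107 CPM) and Dcn (1298 CPM) the highest. The part of these cells in the values of mouse 476 was not tested. Without mouse 476, 5 of the 38 genes were upregulated (Sec24d, Eif2ak3, Pdia5, Xbp1 and Ero1l) and the median log2 fold change was 0.26. In the DMSO group, mouse 481 was lowest of all 7 mice in 19 of the 38 genes (and in 16.8% of all genes tested).

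Another 143 genes of the same compartment, in 7 lists, were counted in the same way, and 141 of them were tested. Of these, 31 were higher (22.0%, beside 12.4% of all genes tested) and 8 lower (5.67%, beside 11.7%), and the median log2 fold change was 0.26. Without mice 481, 482, 483, 476 and 478 the number higher was 19, 11, 11, 12 and 9, in the fits whose shares of all genes called higher were 7.95%, 4.8%, 5.58%, 6.01% and 5.22%. The number lower was 1 without 482 or 478, 2 without 483, 3 without 476 and 5 without 477. The share of all genes tested called lower also fell, to 5.5% without 482 and 4.17% without 478. It was 6.07%, 5.99% and 9.33% without 483, 476 and 477. Among 33 other ER folding factors 10 were higher (30.3%) and 1 lower, including the proline isomerases Fkbp9 (78.7 to 92.5 CPM after DMSO, 155 to 223 CPM after ABT-263) and Fkbp7, with log2 fold changes of 1.04 and 1.00, while the thioredoxin-like Tmx2 fell by 0.73 on the log2 scale. Among 23 other genes of transport between ER and Golgi 7 were higher (30.4%) and 0 lower, including the retrieval receptor Kdelr2 (0.72, SE 0.14) and the cargo receptor subunit Mcfd2 (0.76, SE 0.16). Among 10 oligosaccharyltransferase genes 3 were higher and 1 lower. The catalytic subunit Stt3a (0.82) and the oxidoreductase subunit Tusc3 (1.03) rose, and Magt1, its paralog, fell by 0.71 on the log2 scale.

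Among 20 other ATF4 targets tested, 5 were higher (25.0%) and 0 lower, including the stress sensor Sesn2 (0.66, SE 0.17) and the cystine carrier Slc7a11, which was at 1.85 to 14.7 CPM after DMSO and 25.6 to 39.8 CPM after ABT-263 (log2 fold change 2.36, SE 0.61). Among 12 other sensors and proteases 2 were higher (16.7%) and 0 lower, beside 12.4% and 11.7% of all genes tested. In so few genes each count is near its share. The 2 were the membrane factor Creb3l3 (0.95, SE 0.26) and the Golgi protease Mbtps1 (0.45, SE 0.13), which cleaves ATF6. Creb3l3 was at low levels, 1.49 to 2.41 CPM after DMSO and 3.29 to 4.71 CPM after ABT-263. Among 21 other degradation genes 2 were higher (Ngly1, 0.72, and Ube2j1, 0.55) and 2 lower (Ubxn4, -0.55, and Ube2j2, -0.48), which at 9.52% each way is near the shares of all genes tested. Among 22 other genes of translocation, signal recognition and signal peptidase, 2 were higher (9.09%) and 4 lower (18.2%). These counts are near the shares of all genes tested (12.4% higher and 11.7% lower) in a list of this size. The receptor subunit Srprb had a log2 fold change of 0.43, while Srp9 of the signal recognition particle fell by 0.64 and the translocon partner Sec62 by 0.88 on the log2 scale. The call of Srp54a (log2 fold change 3.62) rests on levels of at most 3.18 CPM, with mouse 480 at 0, and near-identical Srp54 genes make it uncertain.

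**Figure D5:**
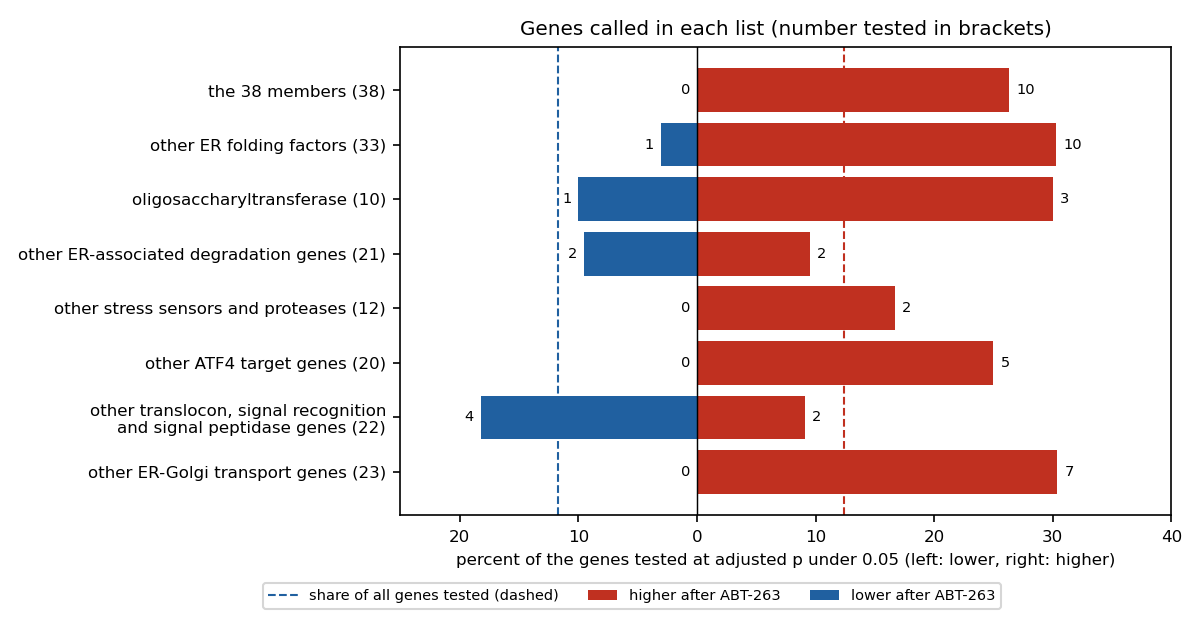
Share of tested genes called higher (right) or lower (left) after ABT-263 at an adjusted p under 0.05, in percent, for the 38 genes and the 7 other lists, with the shares of all genes as dashed lines. The 38 genes had 10 higher and 0 lower calls, and the translocon and signal recognition list was the only one with more lower (4) than higher (2) calls.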

How the data were processed

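The authors aligned reads with STAR 2.7.9a to mm10. With featureCounts (Subread 1.6.2) they counted, for each Ensembl gene outside the mitochondrial genome, proper pairs that aligned uniquely and on its strand. They deposited these counts without normalization, 1 column per mouse. Their second deposited table holds variance-stabilized values on a log2 scale, made with DESeq2 1.23.10, and served only as an alternative.

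Counts were analysed in R 4.3.3 with edgeR 4.0.16, using TMM scaling, the filterByExpr filter and a robust quasi-likelihood fit over all 7 mice, with treatment as the only term and a two-sided test. Benjamini-Hochberg adjustment was over all 17959 genes tested, with a threshold of 0.05. The script was tested on simulated data. CPM are per TMM-scaled library. Alternatives were the Wald test of DESeq2 1.42.0, the size factors of DESeq2, upper-quartile scaling, every gene with a count, at least 10 counts in every mouse, only protein-coding genes, trends on length and GC content taken out (mgcv 1.9.3), limma 3.58.1 on the variance-stabilized values, and leaving out each mouse. Precision is limited by 3 and 4 mice and, for low genes, by depth.

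Symbols, positions and exon lengths came from GENCODE M21 (GRCm38), which held 55190 of 55450 identifiers, and promoters from RefSeq (GRCm38.p6). Ero1l was matched to its newer symbol, and 5 of the 38 genes (Hyou1, Manf, Atf6, Creb3l1 and Sec61a1) had no promoter in the table. Of the 38 genes, 5 (Calr, Dnajb9, Eif2ak3, Hsp90b1 and Sec61a1) match another annotated gene, on either strand, at 90% identity or more over at least 200 bases. The matched genes had mean levels of at most 7.75 CPM. Those of Calr and Dnajb9 are processed pseudogenes. Those of Eif2ak3, Hsp90b1 and Sec61a1 match at 100% identity. That of Sec61a1 is annotated as antisense, and whether these matched genes lie at a separate locus was not checked.

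The members, the gene lists and the tests were chosen with earlier results of these data known. Every member is named. Values in every mouse are given for members past the threshold and for Hspa5, Xbp1, Atf4, Ddit3, Ern1, Atf6 and Eif2ak3, and of each other list up to 2 genes with the smallest p in each direction are named. Hsp90b1, Sdf2l1, Sel1l and Trib3 were given in more detail after their values were seen. The plasma cell list was set with Sdc1 in it, and the sum without Sdc1 was added to that.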

Additional observations from a re-analysis of the deposited data

Results flagged for a closer look

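Among the 4 DMSO mice, 1 mouse lay apart from the others in 3 genes of the set, measured as its gap to the nearest mouse over the range of the group (Dixon's ratio, which passed its critical value for 4 samples). Hsp90b1 in mouse 481 was at 417 CPM against 536 to 558 CPM in the others (ratio 0.849). Ppp1r15a in mouse 480 was at 58.0 CPM against 40.1 to 42.1 CPM (ratio 0.886). Sec31a in mouse 480 was at 107 CPM against 76.1 to 79.1 CPM (ratio 0.905). Of 44 measures examined, chance would flag about 1 in 20, or 2.2. The 3 ABT-263 mice were too few for this rule.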

How the results depend on the processing

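The direction of the median and of all 10 upregulated genes held under the 8 other settings and in the 7 fits that left out 1 mouse. Sec24d, Eif2ak3 and Pdia5 were called in every one of these fits. The number of the 38 genes called higher was 8 to 11 under the 8 settings and 4 to 12 when 1 mouse was left out, the lowest without DMSO mice 482 or 483 and 5 without mice 481 or 476. The number called lower was 1 (Sel1l) under upper-quartile scaling and under removal of length and GC trends, and 0 to 1 when 1 mouse was left out. The number more than 2-fold higher was 3 under length and GC trends, and 3 to 5 when 1 mouse was left out. The median log2 fold change of the set was 0.26 to 0.48 when 1 mouse was left out. The pathway genes called higher numbered 9 to 29 and those called lower 1 to 7 in those fits, and 4 were lower with no filter on low counts. Of all genes tested, 4.8% to 12.3% were higher and 4.17% to 11.9% lower in the fits without a mouse. With no filter on low counts 4.94% were lower. All genes tested divided into 11.2% higher and 12.9% lower under upper-quartile scaling, and 10.8% and 13.5% without length and GC trends, against 12.4% and 11.7%.

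Log2 fold changes near 0 changed sign in uncalled genes. With no filter on low counts, Sec61b was 0.0041. Without length and GC trends, Canx was -0.082, Sec61b 0.019, Sec23a -0.017 and Sec31a -0.059. When 1 mouse was left out, Hsp90b1 ranged from -0.42 to 0.032, Canx from -0.0031 to 0.21, Creld2 from -0.063 to 0.43, Manf from -0.24 to 0.071 and Sec61b from -0.12 to 0.15. P4hb was called in 5 of 8 settings and Creb3l2 in 2 of 8, and each in 1 of 7 fits without a mouse. Pdia4 and Sec61a1 were called in 3 and Ern1 in 2 of those 7 fits. The cause of these changes was not tested, and fits without a mouse have fewer samples. No paired analysis was possible because the mouse numbers are not shared between the groups.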
